A study of Mus musculus with 2 samples.

Results

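The 38 Hox genes of the mouse's 4 Hox clusters were examined in LSK cells, the stem and progenitor fraction of bone marrow, sorted as negative for mature lineage markers and positive for Sca-1 and c-kit. Members were all non-control probes whose transcript identifier belonged to one of the listed Hox symbols, which gave 42 probes on 60 spots, of 55661 probes and 21360 named genes on the array. The Hox A cluster lies on chromosome 6, Hox B on chromosome 11, Hox C on chromosome 15 and Hox D on chromosome 2. Expression was measured on 1-colour Agilent arrays, with 1 array of LSK cells from nondiabetic mice and 1 array of LSK cells from STZ-induced diabetic mice. STZ is streptozotocin, a compound that destroys insulin-producing β-cells, and the paper describes citrate buffer as the injection of nondiabetic controls. Both groups were C57BL/6J mice labelled female, whereas males are described in the paper, and neither the age of the animals nor the time after STZ is labelled. Each array is labelled with 3 mice and an input of 8.3 ng total RNA, without a statement on whether these mice were pooled. With 1 array per condition, no difference below has a replicate check and none was tested.

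Hox genes encode transcription factors with a homeodomain, the part that binds DNA. Within a cluster they lie in the order of the body regions they pattern in the embryo, and genes that share a number across clusters, a paralogous group, are copies of 1 ancestral gene. In blood, stem and progenitor cells are known to express Hox A and Hox B genes and to lose them as they mature. Hoxa9 and Hoxb4 are the best-known members there, since each expands these cells when overexpressed, and Hoxa9 with its cofactor Meis1 drives acute myeloid leukemia.

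The intensity is the spot's brightness after the scanner software subtracted the background, and its ± value is the software's own error estimate. A log2 ratio is diabetic over nondiabetic after each array was scaled to its 75th percentile, which was 168 on the nondiabetic and 182 on the diabetic array. A probe is called measured where the software found it well above background on both arrays. Where that held on 1 array only, the ratio is a bound against the lowest intensity well above background on the other array (10.2 nondiabetic, 10.1 diabetic) or the dim probe's own intensity, whichever was higher. No spot was saturated, and the arrays shared 1 slide and 1 scan. The genes of the sort gate were bright on both arrays, with Kit at 4635 in nondiabetic and 4735 in diabetic cells and Ly6a, which encodes Sca-1, at 475 and 701.

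Markers of the cell types that the sort could hold moved unevenly. Over the whole array, 11.2% of the probes with a ratio or bound were at least 2-fold higher in diabetic cells and 11.2% lower. Of all named genes, 66.7% were well above background in nondiabetic and 67.8% in diabetic cells. Stem and progenitor markers were well above background in 7 of 7 genes on each array, with summed intensities of 12626 and 15519, and of 11 probes 0 were past 2-fold higher and 1 lower. That was a probe of Mecom, needed to maintain blood stem cells, at 182 and 86.1 (log2 ratio -1.20, the other probe -0.16), and Procr, a surface marker of these cells, was at -0.59. Of 8 probes of granulocyte-monocyte markers with a ratio, 7 were lower in diabetic cells, 3 of them at least 2-fold (2 of Itgam at -1.30 and -1.12, 1 of Csf1r at -1.17), and the median log2 ratio was -0.62. Their summed intensity was 43649 and 42380 (5 of 5 genes with a probe), of which 34686 and 35189 came from another Itgam probe. Erythroid markers summed to 2315 and 5373 (5 of 6 genes on each array). Both globins were past 2-fold higher (Hba-a1 1.21, Hbb-b1 1.02), while Gata1, Klf1 and Epor were at -0.59, -0.30 and -0.20. Bone marrow stroma and endothelium express Hox genes of their own. Of 11 genes marking them, 6 were well above background on each array, with Cxcl12 passing in nondiabetic and Lepr in diabetic cells only. Their summed intensities were 2573 and 3589, of which 1188 and 1501 came from 1 probe of Sparc and 844 and 848 from 1 of Kdr. The other probes of Sparc and Kdr were not well above background on either array. Of the 6 probes of stroma and endothelium markers with a ratio or bound, that of Pecam1 was past 2-fold higher (162 and 936, log2 ratio 2.41). That of Col1a2 was past 2-fold lower (85.2 and 43.9, log2 ratio -1.07), and the median was -0.20. Col1a1, Pdgfra and Cdh5 were not well above background on either array. The sum was 356 and 619 for megakaryocyte markers (3 of 4 genes, Gp9 past 2-fold higher). For B cell markers it was 111 and 214 (3 of 4 genes, Cd79a past 2-fold higher). For T and NK cell markers it was 1256 and 1243 (3 of 5 genes on each array, Cd3g past 2-fold lower). Among these, Cd3g passed in nondiabetic cells only (25.4). Klrb1c passed in diabetic cells only, near the detection limit at 13.1 and 15.9. The part of these cell types in the Hox values was not tested. In RNA of a cell population, a lower share of the cells that express a gene and less of its RNA per cell cannot be told apart.

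The Hox genes detected in LSK cells lay mainly in the A and B clusters. By any probe, 18 of the 38 Hox genes were measured, 3 were well above background in diabetic cells only, 1 in nondiabetic cells only and 16 in neither. Of 10 Hox A genes, 8 were measured, and Hoxa11 was the only one in neither condition. Of 10 Hox B genes, 5 were measured, 1 was detected in diabetic cells only and 4 were in neither. Of 9 Hox C genes, 3 were measured and 4 were in neither. Of 9 Hox D genes, the 2 measured were Hoxd12 and Hoxd13, the last genes of their cluster, and the other 7 were in neither. Over all named genes, 63.3% were measured and 28.7% were in neither condition, against 47.4% and 42.1% of the Hox genes. By position in the cluster, 5 of 11 genes of groups 1 to 4, 7 of 11 of groups 5 to 8 and 6 of 16 of groups 9 to 13 were measured.

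Most of the undetected members sat at the level of the negative controls. Of the 18 probes in neither condition, 14 had intensities from 2.14 to 2.65 on both arrays, where the median of 308 negative control spots was 2.35 on the nondiabetic and 2.32 on the diabetic array. These were probes of Hoxa11, Hoxa13, Hoxb1, Hoxb7, Hoxb8, Hoxb13, Hoxc11, Hoxc13, Hoxd1, Hoxd3, Hoxd4, Hoxd8, Hoxd9 and Hoxd11. The Hoxa11 and Hoxb1 probes were printed on 10 spots each, and no spot of them exceeded 4.29. The other 4, of Hoxc4, Hoxc9, Hoxd10 and Hoxd11, lay between 2.79 and 9.88. Hoxc4 had 2.79 in nondiabetic and 9.88 in diabetic cells, the latter just under the lowest intensity called well above background.

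**Figure D1:**
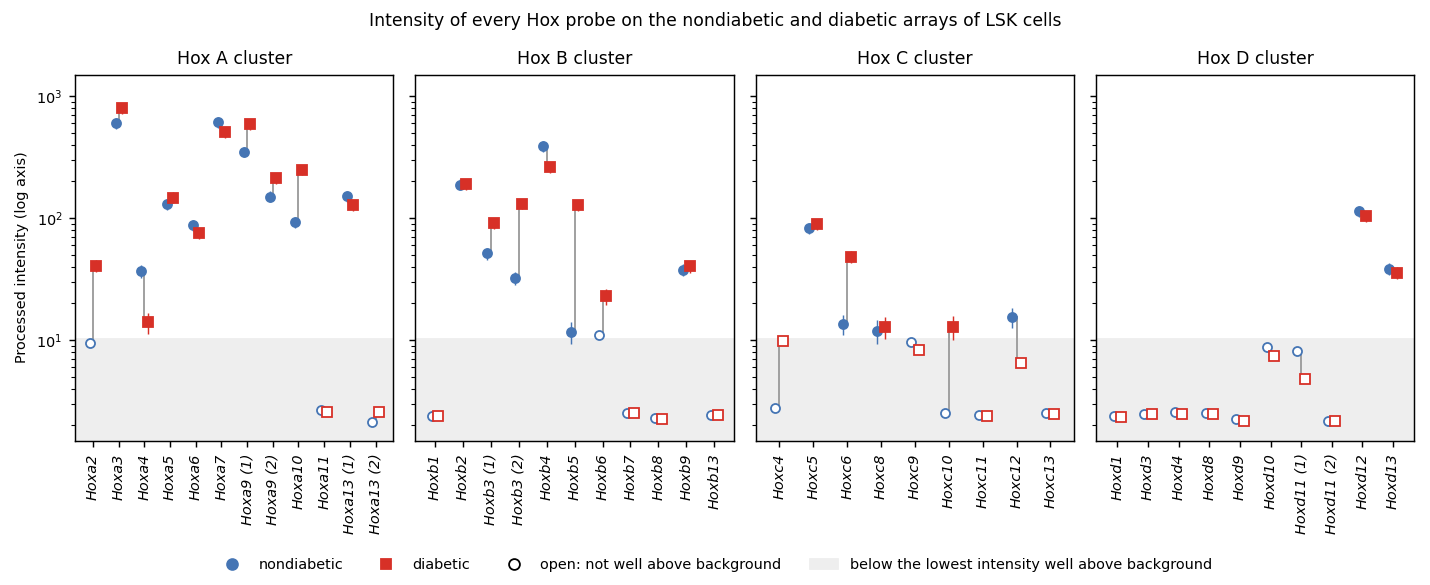
Processed intensity (log axis) of all 42 Hox probes in 4 panels, 1 per cluster, on the nondiabetic (circles) and diabetic (squares) array, with bars for the scanner software's error on probes well above background; open symbols were not well above background, the grey band lies below the lowest intensity that was, and (1) and (2) are different probes of 1 gene. Hox A holds more filled symbols than any other cluster, 7 of 9 Hox D genes lie in the band, and the longest gap is that of Hoxb5, from 11.6 to 128.

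Between nondiabetic and diabetic cells, most measured Hox probes differed by less than 2-fold, as did most measured probes of the array. A few Hox probes differed by much more than the scanner's error. Of the 24 Hox probes with a ratio or bound, 5 were at least 2-fold higher in diabetic cells (20.8%) and 1 at least 2-fold lower (4.17%), where 11.2% of all 37791 such probes were higher and 11.2% lower. The 5 higher were probes of Hoxa2, Hoxa10, Hoxb3, Hoxb5 and Hoxc6, and the lower one was that of Hoxa4. A probe that is well above background on 1 array only can enter just through its brighter array, so the 20 measured probes are given separately. Among these, 4 were at least 2-fold higher and 1 lower, where 8.96% of all 32506 measured probes were higher and 9.12% lower. With so few probes these shares do not set the Hox genes apart from the rest of the array. The median log2 ratio of the 20 measured probes was -0.02, as was that of all measured probes, and 9 lay above 0 and 11 below it. In 12 of the 20 the log2 ratio was within 0.5 of 0. Over all measured probes, the 20th and 80th percentiles of the log2 ratio were -0.51 and 0.51. The median absolute log2 ratio was 0.37 for the Hox probes and 0.38 for all measured probes, so the sizes were alike. The error that the software gives translates to 0.20 to 0.43 on the log2 ratio of the 20 measured Hox probes. Of these, 8 differed by more than 2 such errors, and the share of all measured probes that did so was not counted. Variation among animals, sorts and amplified cDNA is not part of that error. Of all measured probes, those past 2-fold were rarest among the bright ones, and they made up 22.9% of the dimmest, 24.0% of the middle and 7.37% of the brightest of 3 equal classes. In these classes lay 6, 10 and 4 of the measured Hox probes, of which 3, 2 and 0 were past 2-fold.

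**Figure D2:**
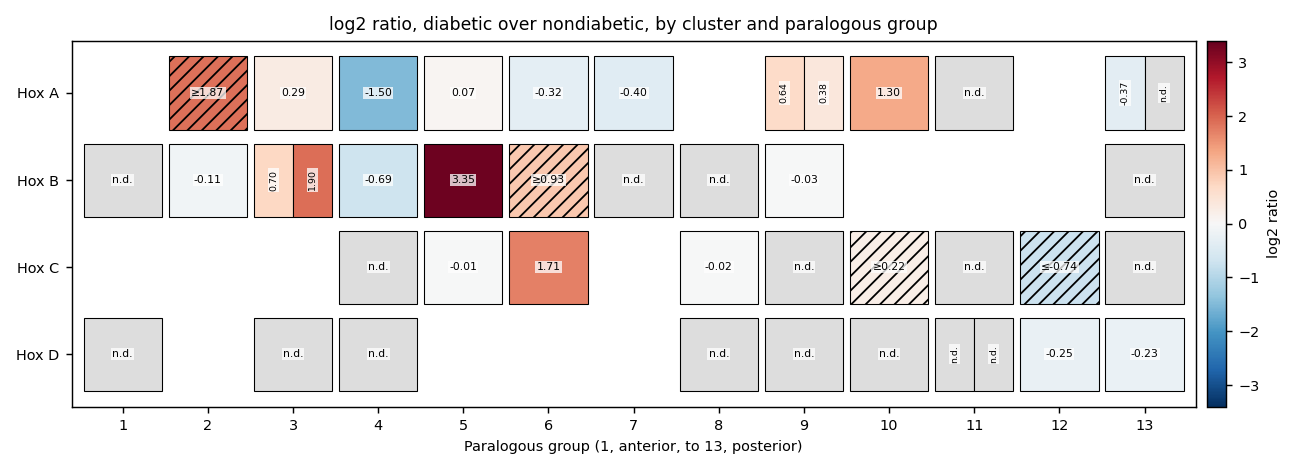
The log2 ratio of diabetic over nondiabetic cells for each Hox probe, with clusters as rows and paralogous groups 1 to 13 as columns; a box split in 2 shows a gene's 2 probes, hatching marks a bound, grey with n.d. marks a probe that passed the detection flag nowhere, and a blank marks a place with no listed gene. The values past 2-fold lie in Hoxa2, Hoxa4, Hoxa10, Hoxb3, Hoxb5 and Hoxc6, and neighbours such as Hoxb4 (-0.69) and Hoxb5 (3.35) have opposite signs.

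**Figure D3:**
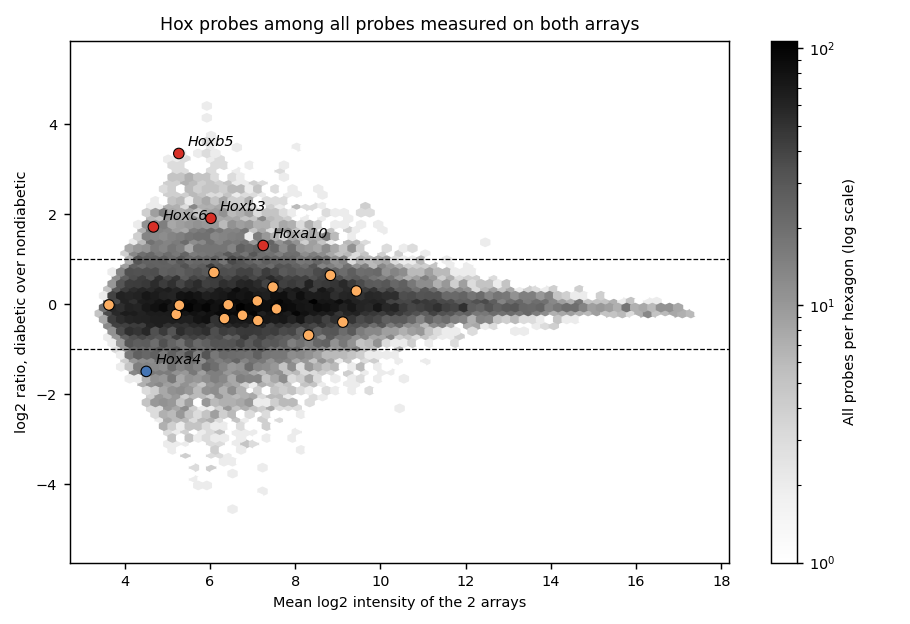
The log2 ratio of diabetic over nondiabetic cells against the mean log2 intensity of both arrays for the 32506 probes measured on both (grey hexagons, darker with more probes) and the 20 measured Hox probes (circles, red at least 2-fold higher, blue at least 2-fold lower, orange between); dashed lines mark 2-fold. Hoxb5 lies at the upper edge of the cloud, and the 4 brightest Hox probes lie within the lines.

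The anterior genes, groups 1 to 4, pattern the hindbrain and neck in the embryo. Hoxa2 (probe A_51_P501803), which sets the identity of the second pharyngeal arch, had an intensity of 9.49 ± 2.42 in nondiabetic cells, not well above background, and 40.5 ± 4.60 in diabetic cells. This makes it at least 3.66-fold higher in diabetic cells. Hoxb2 (probe A_52_P15300), its paralogue, was 188 ± 18.9 in nondiabetic and 189 ± 19.1 in diabetic cells, a log2 ratio of -0.11. In group 2, Hoxa2 was thus detected in 1 condition and Hoxb2 was level in both. Probe sequences were not used here, so cross-hybridisation between paralogues, in this and the other groups, was not checked.

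Of the genes in group 3, Hoxa3 (probe A_55_P2060672), needed for the thymus and parathyroid in the embryo, had 600 ± 60.1 in nondiabetic and 797 ± 79.7 in diabetic cells, a log2 ratio of 0.29. Hoxb3 is known to be expressed in the most primitive blood cells and had 2 probes, both higher in diabetic cells. One (A_52_P312467) was 32.2 ± 3.84 in nondiabetic and 131 ± 13.2 in diabetic cells, a log2 ratio of 1.90 or 3.74-fold. The other (A_51_P460643) was 51.3 ± 5.72 and 90.5 ± 9.40, a log2 ratio of 0.70 that is under 2-fold. The software marked the local background of the spot of A_51_P460643 on the nondiabetic array as an outlier, the only such spot among the Hox probes. Hoxd3 was in neither condition.

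The lowest Hox ratio was in group 4. Hoxa4 (probe A_55_P2219982) was at 36.5 ± 4.35 in nondiabetic and 14.1 ± 2.75 in diabetic cells, a log2 ratio of -1.50, or 2.82-fold lower. Its diabetic intensity lay near the detection limit. Hoxb4 (probe A_55_P2024993), which expands blood stem cells when overexpressed, was 388 ± 38.9 in nondiabetic and 261 ± 26.1 in diabetic cells, a log2 ratio of -0.69. Both measured genes of group 4 were thus lower in diabetic cells, Hoxb4 by less than 2-fold. Hoxc4 and Hoxd4 were in neither condition.

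Group 5 held the largest Hox difference. Hoxb5 (probe A_51_P436342) is known as a marker of long-term blood stem cells in mice, and it was at 11.6 ± 2.38 in nondiabetic and 128 ± 12.9 in diabetic cells. Its log2 ratio of 3.35 is 10.2-fold, and 99.9% of all measured probes had a lower one. The nondiabetic intensity lay just above the lowest called well above background, 10.2, so the size of this ratio rests on a value near the detection limit. The paralogues of Hoxb5 were level. Hoxa5 (probe A_51_P310821), a gene of lung and airway development, was 129 ± 13.1 and 147 ± 14.9, a log2 ratio of 0.07. Hoxc5 (probe A_55_P1966518) was 83.0 ± 8.68 and 89.1 ± 9.25, a log2 ratio of -0.01.

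Beside Hoxb5 in the cluster lies an antisense RNA, Hoxb5os (probe A_55_P2275437). It was 21.4 in nondiabetic cells and 7.69, not well above background, in diabetic cells, which makes it at least 2.31-fold lower there. The gene and its antisense neighbour thus differed in opposite directions. The RNA was amplified to cDNA and labelled with a kit made for genomic DNA, for which the labels do not state that strand was kept. Signal of a gene and of RNA from the opposite strand cannot be told apart on that basis.

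In group 6, the copies differed in the same direction or little. Hoxb6 (probe A_51_P232207), expressed in early myeloid cells, was 11.1 ± 2.70 in nondiabetic cells, not well above background, and 22.8 ± 3.36 in diabetic cells, at least 1.90-fold higher. Hoxc6 (probe A_55_P1966508) was 13.5 ± 2.52 in nondiabetic and 48.0 ± 5.23 in diabetic cells, a log2 ratio of 1.71, or 3.28-fold higher. Its nondiabetic intensity lay near the detection limit. Hoxa6 (probe A_51_P360586) was 86.9 ± 9.03 and 75.3 ± 7.92, a log2 ratio of -0.32. In the B cluster, Hoxb3, Hoxb5 and Hoxb6 were thus all brighter in diabetic cells while Hoxb4, which lies between Hoxb3 and Hoxb5, was dimmer.

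Of groups 7 and 8, Hoxa7 (probe A_51_P509263), another Hox A gene that mixed-lineage leukemia fusions activate, was 612 ± 61.3 in nondiabetic and 503 ± 50.4 in diabetic cells, a log2 ratio of -0.40. Hoxc8 (probe A_55_P2201345) was 11.9 ± 2.59 and 12.8 ± 2.64, a log2 ratio of -0.02 with a software error of 0.43. Both its intensities lay near the detection limit. Hoxb7, Hoxb8 and Hoxd8 were in neither condition.

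The posterior genes, groups 9 to 13, pattern the trunk, limbs and urogenital tract, and those of the A cluster are the ones best known in blood. Hoxa9 had 2 probes, and both were higher in diabetic cells by less than 2-fold. The first (A_55_P1979768) was 349 ± 35.0 in nondiabetic and 589 ± 59.0 in diabetic cells, a log2 ratio of 0.64, and the second (A_55_P2066103) was 150.0 ± 15.2 and 211 ± 21.3, a log2 ratio of 0.38. Hoxa10 (probe A_55_P2164348), a regulator of myeloid progenitors next to Hoxa9, was 92.9 ± 9.65 in nondiabetic and 248 ± 24.96 in diabetic cells. Its log2 ratio of 1.30, or 2.46-fold higher, was the only one past 2-fold in groups 9 to 13. The other group 9 gene that was measured, Hoxb9 (probe A_52_P973575), was level at 37.6 ± 4.40 and 40.1 ± 4.56, a log2 ratio of -0.03.

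Hoxc10 and Hoxc12 were each detected in 1 condition. Hoxc10 (probe A_51_P375754) was 2.50 ± 2.51 in nondiabetic cells, not well above background, and 12.9 ± 2.84 in diabetic cells, so that its ratio is bounded at only 1.16-fold higher. Hoxc12 (probe A_55_P2169099) was 15.4 ± 2.93 in nondiabetic cells and 6.43 ± 2.60, not well above background, in diabetic cells, at least 1.67-fold lower. The last genes of the D cluster, which act in digit and genital development, were level. Hoxd12 (probe A_55_P2160638) was 114 ± 11.6 in nondiabetic and 104 ± 10.6 in diabetic cells, a log2 ratio of -0.25. Hoxd13 (probe A_52_P591310) was 38.4 ± 4.39 and 35.5 ± 4.14, a log2 ratio of -0.23. The copy of group 13 in the A cluster gave a split picture. One probe of Hoxa13 (A_51_P303316) was 152 ± 15.4 and 128 ± 13.02, a log2 ratio of -0.37, while the other (A_55_P1970075), assigned to the same transcript, was 2.14 and 2.59, at the level of the negative controls.

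Only 4 Hox genes had a second probe, and only Hoxa9 and Hoxb3 had 2 measured probes. For every other Hox gene with a ratio or bound, that value rests on 1 probe. Over the 3245 genes of the array with at least 2 measured probes, the log2 ratios of the 2 brightest differed by a median of 0.56, with a 75th percentile of 1.17. The 2 probes of Hoxa9 differed by 0.26 and those of Hoxb3 by 1.20. Spots of 1 probe were closer to each other, with a median SD of 0.13 in the log2 ratio over 237 measured probes that were printed 5 times or more, and of 0.25 for the 88 in the dimmest class. The single-probe ratios of Hoxb5, Hoxc6, Hoxa4 and Hoxa10 and the bound of Hoxa2 lack the check that a second probe gives.

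The promoters of the Hox genes were then read for what the array does not show. RefSeq promoter windows of assembly GRCm38.p6, from 250 bases before to 50 bases after a transcript start, were matched by symbol for 22 of the 38 genes, with 24 windows. Of the genes past 2-fold, Hoxa2 and Hoxa10 had a window, and they are printed with that of Hoxa3 (log2 ratio 0.29), the other Hox gene whose window holds a Meis site. Capitals mark matches on either strand to TGATNNAT, a composite site of a Pbx and a Hox protein, to TGACAG, the site of Meis and Pknox proteins, and to TTTATG, a site of Cdx and posterior Hox proteins. A lower case window holds no match.
Hoxa2, chr6:52164782-52165081, minus strand: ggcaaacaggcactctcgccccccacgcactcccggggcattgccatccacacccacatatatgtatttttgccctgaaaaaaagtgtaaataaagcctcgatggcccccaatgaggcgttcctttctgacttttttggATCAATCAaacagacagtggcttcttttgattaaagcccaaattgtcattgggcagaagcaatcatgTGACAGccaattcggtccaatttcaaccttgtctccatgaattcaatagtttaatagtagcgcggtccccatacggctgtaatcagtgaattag
Hoxa3, chr6:52213018-52213317, minus strand: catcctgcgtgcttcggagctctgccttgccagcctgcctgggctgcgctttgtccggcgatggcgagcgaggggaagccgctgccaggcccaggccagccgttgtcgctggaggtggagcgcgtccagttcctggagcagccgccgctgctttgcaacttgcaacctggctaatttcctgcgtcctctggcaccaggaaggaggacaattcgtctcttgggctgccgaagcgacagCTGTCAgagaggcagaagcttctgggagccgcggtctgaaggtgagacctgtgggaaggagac
Hoxa10, chr6:52234890-52235189, minus strand: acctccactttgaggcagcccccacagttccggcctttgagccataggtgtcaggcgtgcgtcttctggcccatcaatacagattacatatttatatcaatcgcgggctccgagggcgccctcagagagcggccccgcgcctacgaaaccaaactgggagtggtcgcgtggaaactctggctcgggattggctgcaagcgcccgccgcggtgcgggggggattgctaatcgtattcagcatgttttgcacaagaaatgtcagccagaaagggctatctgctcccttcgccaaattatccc
Hoxa10, chr6:52240805-52241104, minus strand: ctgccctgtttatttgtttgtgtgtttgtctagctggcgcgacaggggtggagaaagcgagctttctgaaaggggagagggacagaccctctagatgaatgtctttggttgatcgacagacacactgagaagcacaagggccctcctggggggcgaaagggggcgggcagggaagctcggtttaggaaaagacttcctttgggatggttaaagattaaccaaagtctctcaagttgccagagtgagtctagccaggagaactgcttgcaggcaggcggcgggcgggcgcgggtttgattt
The Hoxa2 window held the Pbx-Hox composite 111 bases before the start and the Meis site 44 bases before it, and it was the only Hox window with both. The Hoxa3 window held the Meis site 13 bases before the start, and neither Hoxa10 window held any of the 3. Over all 24 Hox windows, 4 held TGATNNAT (16.7%, against 8.85% of all 32851 windows), 2 held TGACAG (8.33%, against 19.2%) and 5 held TTTATG (20.8%, against 11.9%). A match describes these letters and is not evidence that a factor binds there. Hox windows were rich in CpG dinucleotides, with a median ratio of observed to expected CpG of 0.63 against 0.38 over all windows. That median was 0.66 for the 11 windows of measured Hox genes and 0.66 for the 12 of Hox genes in neither condition, so the medians of detected and undetected members were close.

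Hox proteins bind DNA together with homeodomain cofactors of the TALE class, the Meis, Pbx and Pknox proteins. Of 8 such genes with 12 probes, 6 were well above background in each condition. Of all named genes, 66.7% were so in nondiabetic and 67.8% in diabetic cells. Of 9 probes with a ratio or bound, 3 were higher in diabetic cells by 2-fold or more (Pbx3, Pbx4, Pknox1) and 1 lower (Pbx2), where 11.2% of all probes were higher and 11.2% lower. Meis1 (probe A_55_P1995572), the main partner of Hoxa9, was level at 1035 in nondiabetic and 1361 in diabetic cells, a log2 ratio of 0.28. The brighter probe of Meis3 (A_55_P2005248) was 1718 and 1992, a log2 ratio of 0.10, and a dimmer one was at -0.64. Pbx4 (probe A_51_P428781) was 77.1 and 296, a log2 ratio of 1.83, and Pbx2 (probe A_51_P246471) was 296 and 114, a log2 ratio of -1.49. The 2 probes of Pbx3 were far apart, with log2 ratios of 2.0 (A_55_P2107367, from 72.0 to 311) and 0.29 (A_55_P1968982). Of Pknox1, the bright probe (A_55_P1997086) was 2437 and 1657, a log2 ratio of -0.67, while a dim one (A_52_P431894) was at least 2.04-fold higher in diabetic cells. Meis2 and Pknox2 were in neither condition.

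Hox clusters are kept active by the MLL complex and its partners and, early in blood development, by Cdx proteins. Of 10 such genes Kmt2a, which encodes MLL, had no probe that the reference table names. Of the other 9 genes, 6 were well above background in each condition, beside 66.7% of all named genes in nondiabetic and 67.8% in diabetic cells. Of 9 probes with a ratio, 1 was at least 2-fold higher and 0 lower, where 8.96% of all measured probes were higher and 9.12% lower. That probe was of Dot1l (A_55_P2109354), a histone methyltransferase that MLL fusions recruit to Hoxa9, at 29.1 in nondiabetic and 79.0 in diabetic cells, a log2 ratio of 1.32. Ash2l, a core subunit of MLL complexes, had log2 ratios of 0.36 (A_51_P192344, at 755 and 1054) and 0.33. Men1, which links MLL to chromatin, had log2 ratios of 0.41 and 0.68, and Psip1, its partner, 0.93 and -0.26. Wdr5 (562 in nondiabetic and 431 in diabetic cells) and Rbbp5 (209 and 157) were lower, with log2 ratios of -0.50 and -0.53. Of the 9 probes, 6 lay above 0 and 3 below it. Cdx1, Cdx2 and Cdx4 were in neither condition, with intensities up to 8.95.

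Polycomb proteins hold Hox clusters silent. Of 10 Polycomb genes, 9 were well above background in each condition, beside 66.7% of all named genes in nondiabetic and 67.8% in diabetic cells. Of 10 probes with a ratio, 0 were at least 2-fold higher and 1 lower, again beside 8.96% and 9.12% of all measured probes. Ring1 (probe A_51_P455266) was 51.7 in nondiabetic and 25.2 in diabetic cells, a log2 ratio of -1.15. The other 9 probes lay between 0.07 for Ezh2 and 0.94 for the brighter probe of Bmi1 (A_55_P2170335, at 244 and 510). Among them Eed and Suz12, core subunits of the complex that holds Ezh2, were at 0.35 and 0.50, and Cbx7, which reads the mark that Ezh2 sets, at 0.61. The median over the 10 probes was 0.41, and -0.01 over all probes with a ratio or bound.

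**Figure D4:**
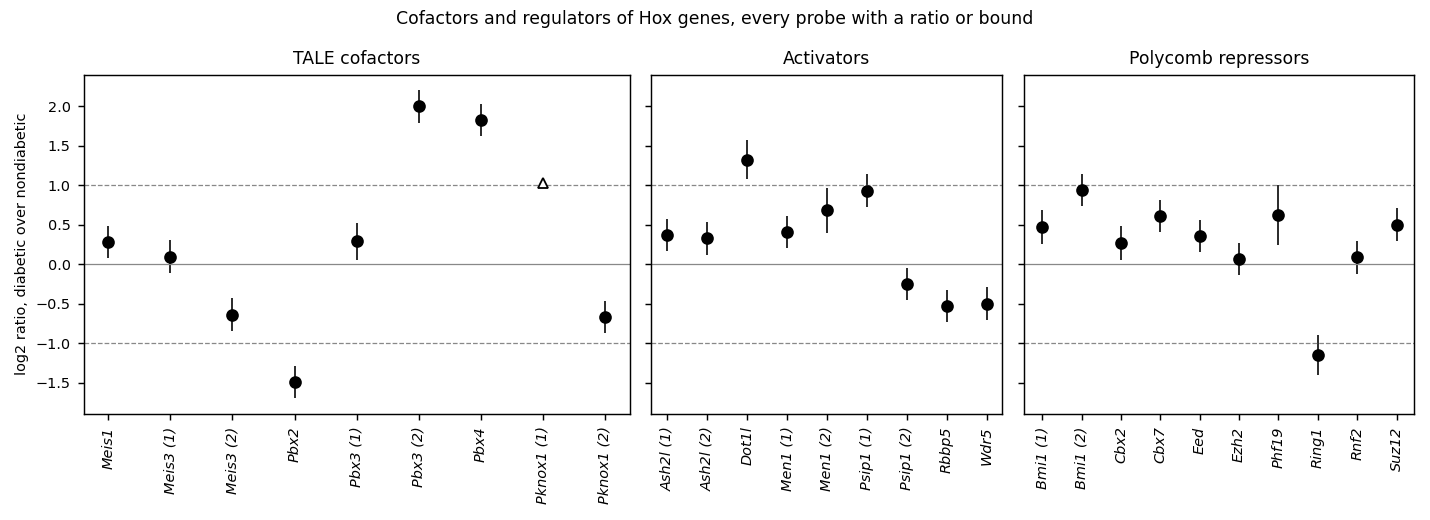
The log2 ratio of diabetic over nondiabetic cells for each probe of the TALE cofactors, activators and Polycomb repressors of Hox genes, with bars for the scanner software's error; open triangles are bounds, dashed lines mark 2-fold, and numbers in brackets mark different probes of 1 gene. The cofactor probes range from -1.49 for Pbx2 to 2.0 for 1 probe of Pbx3, while 9 of the 10 Polycomb probes lie above 0.

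Of the settings run, normexp changed the Hox values past 2-fold most. It differs in the correction method, in an offset of 50 and in the intensities it starts from, whose parts were not separated. It left 2 of the 6 probes past 2-fold, those of Hoxb5 (log2 ratio 1.45) and Hoxb3 (1.08). Under it Hoxa10 was at 0.85, Hoxc6 at 0.66, Hoxa2 at 0.50 and Hoxa4 at -0.41. The share of all probes at least 2-fold higher and lower then was 3.31% and 3.35%. With loess or quantile normalization, each of the 6 stayed past 2-fold in the same direction. The same held with the authors' processed values and median centring. These 2 shift all ratios by 1 small constant each, so they could hardly have changed it. Loess added Hoxb6, at 1.01.

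**Figure D5:**
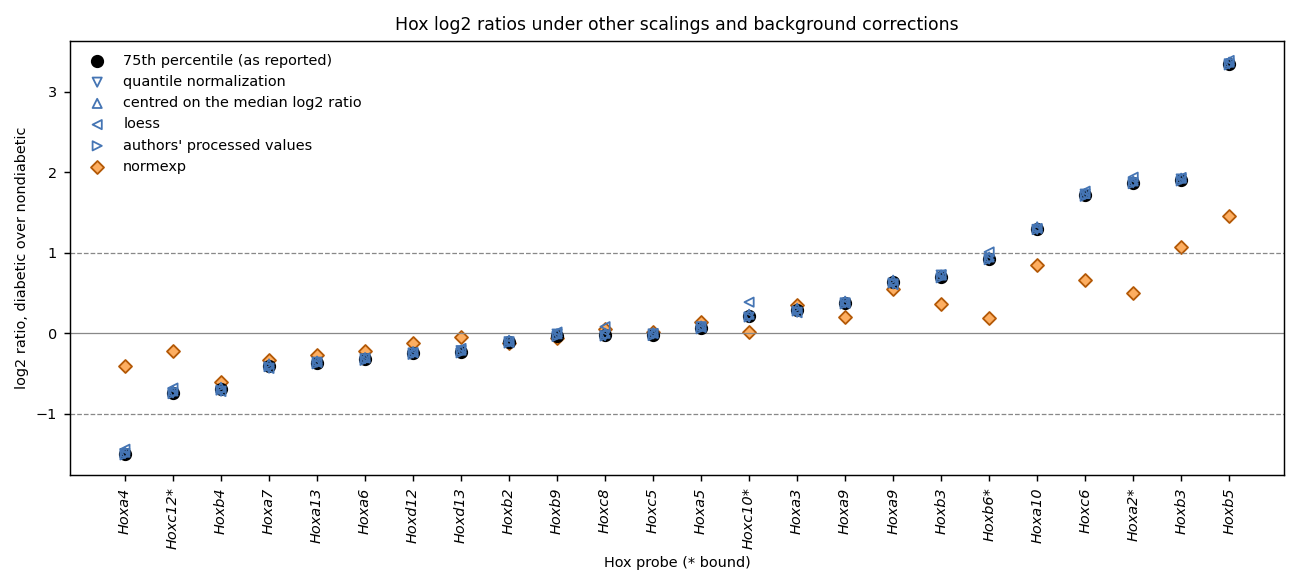
The log2 ratio of diabetic over nondiabetic cells for the 24 Hox probes with a ratio or bound (asterisk), ordered by the reported value (black circles), with the values under 4 other scalings or processed tables (blue triangles) and under normexp background correction with an offset of 50 (orange diamonds); dashed lines mark 2-fold. The triangles sit on or near the circles, while under normexp only Hoxb5 and 1 probe of Hoxb3 remain past 2-fold.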

How the data were processed

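RNA of LSK cells was hybridised to 2 Agilent arrays, 1 per condition. The deposited files come from Agilent Feature Extraction 11.5.1.1, which subtracted the background within the array from the intensity of each spot. The grid refers to build mm9, whose coordinates were left aside. In the authors' own table of processed intensity, each column is the scanner's value times 1 constant (log2 factors of 3.48 nondiabetic and 3.35 diabetic). How that constant was chosen is not given in the sources used here.

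Intensities were taken to log2, scaled by array to the 75th percentile (non-control spots), freed of spots marked non-uniform or population outliers on either array (192 nondiabetic, 147 diabetic) and averaged over the spots of a probe. The flag for well above background had to hold in most spots of a probe. Probes were named by unversioned transcript identifier through RefSeq of assembly GRCm38.p6, which gave 1 symbol to 28319 of 55661 probes (50.9%). Every probe of a member was kept. Differences were described by size against a limit of 2-fold. The number of arrays limits the precision, and no test was made. The Hox members and the lists of cofactors, regulators, targets, noncoding RNAs and cell type markers were chosen with earlier results of these data known. So were the genes named. These are every member and, from the lists, mainly genes past 2-fold, with the brightest probes, or lower where others named were higher. One cofactor gene is not reported here.

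The alternatives were loess (span 0.3), quantile normalization, median centring, the authors' table, normexp (offset 50, from median spot and local background intensity), the filter on dim probes dropped or required on both arrays, a floor for dim values, the flag for positive and significant spots, and 1 value per gene. The steps were tested on simulated data in which only bright probes were given a change, so the dim Hox probes were not covered. Python 3.11.15 with numpy 2.4.6 and pandas 2.3.3 and R 4.3.3 with limma 3.58.1 were used.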

Additional observations from a re-analysis of the deposited data

How the results depend on the processing

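No paired analysis was possible because nondiabetic and diabetic cells had 1 array each, and for that reason no replicate could be left out. Of the 188 comparisons of a Hox probe's log2 ratio with an alternative, 172 moved by less than the spot SD of 0.13. The other 16 moved by more, 13 of them under normexp, and no value past 2-fold changed sign. Many of the 172 could not move. The floor and the filter on both arrays leave a ratio as it is, and dropping the filter alters bounds only. The authors' table and median centring shift all ratios alike. Of the other settings, loess moved 1 value by more than that SD and quantile normalization left all 24 within it. Normexp left 2 Hox probes higher in place of 5 and 0 lower in place of 1, and of the cofactors and regulators 2 higher and 1 lower in place of 4 and 2. With no filter on dim probes 2 Hox probes were lower in place of 1, with Hoxc12 added, and 7 were higher in place of 5. That setting drops the detection limit, so that dim values count. The Hox median lay between -0.03 and 0.05 under all scalings run. By the flag for positive and significant spots, 27 Hox probes passed on both arrays in place of 20. The share of all probes that passed this flag was not counted. Hox detection under it therefore cannot be set beside that of the array. Signal over background left 18 of 42 Hox probes with no ratio.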

Other observations

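Genes that Hoxa9 and Meis1 are known to bind in blood cells were well above background in both conditions for 12 of 12. Over all named genes that share was 63.3%. Of the 18 target probes with a ratio or bound, 2 were past 2-fold higher in diabetic cells and 0 lower. Of all such probes, 11.2% were higher and 11.2% lower. The 2 higher target probes were dim ones with a bound, one of Erg (A_55_P2113832, 11.8 in nondiabetic and 34.4 in diabetic cells) and one of Camk2d (A_52_P188261, 2.20 and 24.1). The brighter probes had log2 ratios of 0.37 for Erg and of -0.40 and -0.03 for Camk2d. Myb, a transcription factor that progenitors need, was at 1929 and 3451, a log2 ratio of 0.72. Lmo2, a partner of the stem cell factor Tal1, was at 3722 and 6158, a log2 ratio of 0.61, and Hlf, a transcription factor of blood stem cells, was at 3223 and 4374, a log2 ratio of 0.32. Cd34, a surface protein of progenitors, was at 3888 and 4902 by its brighter probe, with log2 ratios of 0.22 and -0.09. Cdk6 was lower, at 248 and 191, a log2 ratio of -0.49. Of the 18 probes, 11 lay above 0 and 7 below it. Their median was 0.21, and that over all probes with a ratio or bound was -0.01.

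Of 11 noncoding RNAs of the Hox clusters, 6 had a probe that the reference table names, and of 4 probes with a ratio or bound 1 was past 2-fold lower (Hoxb5os) and 0 higher, where 11.2% of all such probes were lower and 11.2% higher. Hoxaas2 (A_52_P593212), in the A cluster, was at 205 in nondiabetic and 360 in diabetic cells, a log2 ratio of 0.70. Hoxa11os (A_55_P2041700), antisense to Hoxa11, was at 82.5 and 103, a log2 ratio of 0.20, while Hoxa11 itself was in neither condition. Haglr (A_55_P2072164), which lies beside Hoxd1, was at 285 and 253, a log2 ratio of -0.29, while Hoxd1, Hoxd3 and Hoxd4 were in neither condition. Hottip, at the posterior end of the A cluster, and Hoxd3os1 were in neither condition. Hotair, Hotairm1, Hotairm2, Hoxb3os and Hoxaas3 were not analysed here.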
